A study of Mus musculus with 6 samples.

Results

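The glucose sensing and KATP channel genes of MIN6 cells were read through 4 genes, Slc2a2, G6pc2, Abcc8 and Kcnj11. Every probe set (a group of short probes that reads one transcript) annotated with one of these symbols alone was taken, which gave 6 of the 45037 probe sets and 4 of the 18193 genes with a probe set of their own. Slc2a2 and G6pc2 have 1 probe set each, and Abcc8 and Kcnj11 have 2 each. MIN6 cells come from a mouse insulinoma and secrete insulin, and they stand in for beta cells of the pancreas. On 3 arrays the cells had received a scrambled negative control siRNA and on the other 3 an siRNA against Hlxb9, the gene now called Mnx1, which encodes a homeobox transcription factor of beta cells and motor neurons. Both siRNAs were delivered by nucleofection and a lipid reagent, and total RNA was taken 72 hours later. Transfections were picked for the arrays by western blot, which had to show a loss of Hlxb9 protein above 75%. The labels call the material sorted cells and name no gate. Arrays are numbered 1 to 3 in each group, and nothing says whether arrays of one number share a culture or a day. The p-values measure the spread between these arrays only.

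Slc2a2 encodes GLUT2, the transporter through which glucose enters the rodent beta cell. The sugar is then phosphorylated, and G6pc2, an islet glucose-6-phosphatase in the membrane of the endoplasmic reticulum, can reverse that step and so lower how much glucose is metabolised at a given concentration. Metabolism raises ATP, which closes the KATP channel, an assembly of pore subunits encoded by Kcnj11 and sulfonylurea receptor subunits encoded by Abcc8. Closure depolarises the membrane, opens voltage-gated calcium channels and releases insulin.

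The siRNA target is a homeobox factor, and factors of that family commonly recognise a TAAT core. The 250 bases before the annotated start of Slc2a2 and of G6pc2 are therefore shown, from RefSeq in assembly GRCm38.p6, with each TAAT on either strand (ATTA on the strand printed) in capitals. Of the 4 genes, 2 matched the promoter table.
Slc2a2, chr3:28697653-28697902, plus strand: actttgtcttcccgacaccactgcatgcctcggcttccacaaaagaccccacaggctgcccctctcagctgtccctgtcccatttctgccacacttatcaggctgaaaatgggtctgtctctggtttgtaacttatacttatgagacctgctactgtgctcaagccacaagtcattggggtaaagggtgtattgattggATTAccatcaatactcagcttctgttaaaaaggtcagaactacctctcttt
G6pc2, chr2:69210823-69211072, plus strand: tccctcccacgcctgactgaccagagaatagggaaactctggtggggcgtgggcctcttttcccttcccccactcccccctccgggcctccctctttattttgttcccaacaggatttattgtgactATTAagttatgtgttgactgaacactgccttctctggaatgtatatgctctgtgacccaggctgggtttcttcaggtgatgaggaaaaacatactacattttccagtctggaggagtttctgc
Each window held 1 match, which began 51 bases before the start in Slc2a2 and 123 bases before it in G6pc2. Such a core is common, since 54.9% of the 32851 promoter windows of this length held at least 1. The longer palindrome TAATTA was in neither window and in 4.84% of all windows. The E-box CANNTG, the motif bound by Neurod1 and related factors, occurred once in each window, as CAGCTG in Slc2a2 and CAGGTG in G6pc2, against 66.2% of windows with at least 1. A second listed start of G6pc2, inside the gene, had 3 TAAT matches and 4 CANNTG matches in its 250 bases. These matches describe the sequence, and binding was not measured here.

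Values are log2 signals, in which 1 unit is a 2-fold difference, and the median of the mean signals of all probe sets was 5.16. Signals of different probe sets are not compared with each other, because each has its own probes. The target itself differed little in transcript. Mnx1 read 7.82, 7.50 and 7.77 on control arrays 1, 2 and 3 and 7.53, 7.41 and 7.28 on Hlxb9 siRNA arrays 1, 2 and 3, a difference of -0.29 ± 0.13 log2 (SE) that did not pass (limma adjusted p = 0.659) and was -0.19 without both arrays numbered 3. Limma, adjusted over all 45037 probe sets at 0.05, called 0 of them between the groups (0.0%) and 3430 at an unadjusted p of 0.05 (7.62%). The array labelled control 3 stood apart in RNA quality. There the signal from the 3' end of Gapdh was 2.13 log2 above that from its 5' end, a gap that ran from 0.65 to 0.78 elsewhere. Beta cell markers were bright on the arrays, and all 8 measured of 10 listed lay above 5.16, among them Ins2 at 13.85 in controls and 13.81 after Hlxb9 siRNA. Gcg, the glucagon gene of alpha cells, was also bright in this line (13.00 and 12.87). The mean signal of the beta cell list ran from 12.07 to 12.14 in controls and from 12.03 to 12.23 after Hlxb9 siRNA. Of 4 measured acinar markers, 0 lay above 5.16, and of the 5 fibroblast and 5 macrophage markers 1 each did. Of the 5 macrophage markers 2 had higher and 3 lower values after Hlxb9 siRNA. Cd68, the one above 5.16, differed by 0.54 log2 and the dim Csf1r by -0.36, each without overlap of the groups (limma adjusted p = 0.645 for both). The mean signal of the macrophage list was 4.03 to 4.29 in controls and 4.13 to 4.20 after Hlxb9 siRNA.

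The GLUT2 gene Slc2a2 varied far more between array numbers than between siRNAs. It read 9.21, 9.27 and 10.17 on control arrays 1, 2 and 3 and 9.38, 9.46 and 10.29 on Hlxb9 siRNA arrays 1, 2 and 3. Both arrays numbered 3 were high, both groups overlapped, and the other 4 arrays lay within a narrow band. Array 3 exceeded the mean of arrays 1 and 2 by 0.94 log2 in the control group and by 0.87 in the Hlxb9 siRNA group, which for the number means is 0.90 log2 or 1.87-fold. The array number took up 96.5% of the total sum of squares of Slc2a2, the siRNA 3.35% and the remainder 0.136%, against medians of 37.6% for the number and 16.5% for the siRNA over all probe sets. Its range between number means, 0.94 log2, was wider than that of 98.9% of probe sets, whose median was 0.21. In limma's F test of the array number, with the group in the model, Slc2a2 had an unadjusted p of 0.000484, rank 72 of 45037, and did not pass after adjustment (adjusted p = 0.295). That test called 3 probe sets (0.00666%), those of the pancreatic polypeptide gene Ppy, of Cdh13 and of Dlk1, and each was lower on both arrays numbered 3, with shifts of -2.38, -2.17 and -2.24 log2, where Slc2a2 was higher. It called 0 with the offset, without dim probe sets, and without any 1 of control 1, control 2, Hlxb9 siRNA 1 and Hlxb9 siRNA 2. At an unadjusted p of 0.05 the test on all arrays picked 3579 probe sets (7.95%), and of the 6 member probe sets only that of Slc2a2.

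**Figure D1:**
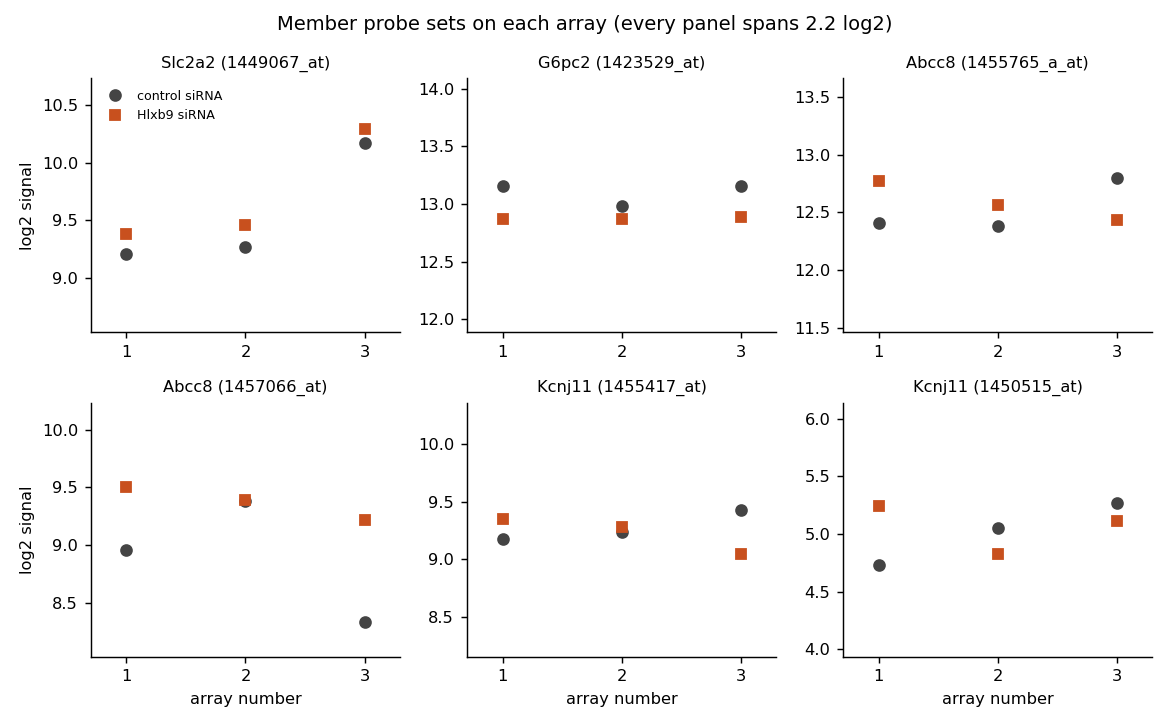
Log2 signal of the 6 member probe sets against array number, with control siRNA as grey circles and Hlxb9 siRNA as orange squares, 1 point per array; the numbers are names, not an order. Slc2a2 is high on both arrays numbered 3 (10.17 and 10.29), all Hlxb9 siRNA points of G6pc2 lie below its controls, and the second Abcc8 probe set is low on control array 3 (8.33).

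Against that spread the siRNA groups of Slc2a2 could not be told apart. The control arrays averaged 9.55 ± 0.54 and the Hlxb9 siRNA arrays 9.71 ± 0.50 (SD, n = 3 each), a difference of 0.16 ± 0.32 log2 (SE) with a 95% interval from -0.58 to 0.90 (limma adjusted p = 0.911, exact two-sided permutation p = 0.5). Within arrays of the same number Slc2a2 was higher after Hlxb9 siRNA in 3 of 3 pairs, by 0.17, 0.19 and 0.11 log2. With the number as a block the standard error fell to 0.11 and the 95% interval to -0.10 to 0.42, and the difference still did not pass (limma adjusted p = 0.656). Leaving out control 3 moved it to 0.47 and leaving out Hlxb9 siRNA 3 to -0.13, because either step leaves a high array in 1 group only. It was -0.012 without control 1, 0.018 without control 2, 0.32 without Hlxb9 siRNA 1, 0.28 without Hlxb9 siRNA 2 and 0.18 without both arrays numbered 3.

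The sugar transporter genes Slc2a1 and Slc2a3 did not show the high arrays of Slc2a2. Slc2a1, which encodes the widely expressed GLUT1, was lower on both arrays numbered 3 on its brightest probe set. That probe set read 11.29, 11.61 and 10.87 on control arrays 1, 2 and 3 and 11.48, 11.83 and 11.21 on Hlxb9 siRNA arrays 1, 2 and 3. Its number 3 mean differed from that of the others by -0.52 log2 (limma F test, unadjusted p = 0.00568, adjusted p = 0.435). On the other probe sets of Slc2a1 that shift was -0.18 and -0.75 log2. Where it was -0.18, control 3 (11.35) lay above control 1 (11.20). Between the siRNAs Slc2a1 differed by 0.25 ± 0.22 log2 (SE), and by 0.057 without control 3, 0.43 without control 2, 0.09 without Hlxb9 siRNA 2 and 0.40 without Hlxb9 siRNA 3. Its other probe sets differed by -0.054 and 0.32, so the direction depended on the probe set. Slc2a3, encoding GLUT3 of neurons, read 7.41, 7.37 and 6.97 in controls and 7.76, 7.78 and 7.76 after Hlxb9 siRNA, so all 3 treated arrays lay above the controls. The difference of 0.51 ± 0.14 log2 (SE) did not pass (limma adjusted p = 0.645), and of its other probe sets 1 was higher by 0.69 and the dim ones lay at -0.15 and 0.025. That probe set of Slc2a3 carries the suffix _x_at, given to probe sets with probes that may cross-hybridise.

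Among islet markers, Ucn3 of mature beta cells shifted by -0.96 log2 on the arrays numbered 3 (limma F test, unadjusted p = 0.00022), the delta cell gene Sst by -0.58 (unadjusted p = 0.0207), and Pdx1, which acts on the Slc2a2 promoter, stood 0.08 log2 higher (unadjusted p = 0.786). Alb, the liver marker, was higher by 0.94 on a dim probe set (unadjusted p = 0.000438). The other 7 beta cell markers shifted by between -0.13 and 0.094 log2, so that of the 8 only Ucn3 had an unadjusted p under 0.05. Over the 5 liver markers, a tissue that also uses GLUT2, the mean signal was 6.66, 6.60 and 6.90 on numbers 1, 2 and 3. The mean of the 3 delta and PP cell markers was 8.96, 8.81 and 7.95, with Ppy at -2.38, Sst at -0.58 and the dim Hhex at 0.15. The part of these markers in the Slc2a2 pattern was not tested, and in bulk RNA fewer cells of a type and less RNA per cell cannot be told apart. The genes next to Slc2a2 on the chromosome, Tnik and Eif5a2, shifted by -0.14 and -0.10 log2 on the arrays numbered 3.

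**Figure D2:**
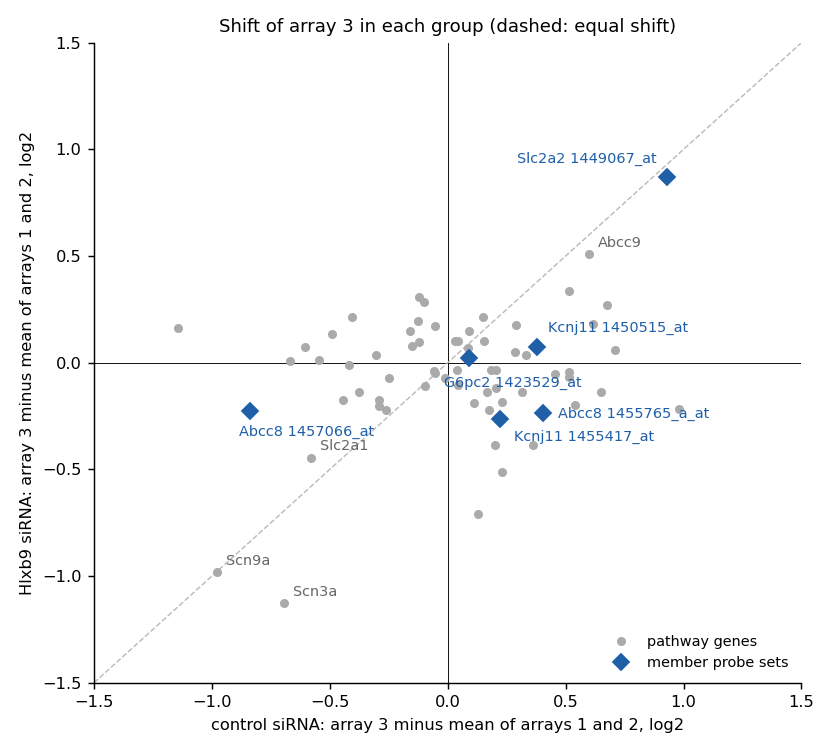
Array 3 minus the mean of arrays 1 and 2, in log2, in the control group (horizontal) and the Hlxb9 siRNA group (vertical), for the 6 member probe sets (blue diamonds) and 62 pathway genes (grey circles); the dashed line marks equal shifts. Slc2a2 lies at 0.94 and 0.87, close to that line and opposite to Slc2a1, Scn3a and Scn9a, while the second Abcc8 probe set shifted mainly in the control group (-0.84 against -0.22).

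G6pc2, the glucose-6-phosphatase gene of islets, was the only one of the 4 genes whose groups did not overlap. Control arrays 1, 2 and 3 read 13.16, 12.98 and 13.16 and Hlxb9 siRNA arrays 12.87, 12.87 and 12.89. All 3 treated values lay below all controls, a pattern shown by 7.29% of probe sets, so 1 of 6 member probe sets is near that background, and 0 of 6 had all treated values above the controls (8.27% of probe sets). The means were 13.10 ± 0.10 and 12.88 ± 0.0096 (SD, n = 3 each), and the difference of -0.23 ± 0.10 log2 (SE), a level 14.4% lower with a 95% interval from -0.46 to 0.0091, did not pass (limma unadjusted p = 0.0575, adjusted p = 0.662). The exact two-sided permutation test gave p = 0.1, the smallest that 3 against 3 arrays allow. Among the Hlxb9 siRNA arrays 0.717% of probe sets varied less. That share is over probe sets of every brightness, with a median signal of 5.16, and was not taken among bright ones. G6pc2 was lower in 3 of 3 pairs of equal number, by -0.28, -0.11 and -0.28 log2, and showed no number pattern of the kind seen in Slc2a2, with a number share of 12.4% (limma F test, adjusted p = 0.951).

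Leaving out any single array kept the G6pc2 difference between -0.28 and -0.19 log2, and it was -0.20 without both arrays numbered 3. With array weights it was -0.14. Unadjusted limma p was under 0.05 in 5 of the 14 alternatives, the lowest 0.00872 with the offset, and above it in the other 9, the highest 0.14 without control 1. Adjusted p lay between 0.274 and 0.958. Of its chromosomal neighbours, Abcb11, a bile salt exporter, differed by 0.18 log2, and the kinetochore gene Spc25 read 12.86, 12.62 and 12.90 in controls and 12.70, 12.62 and 12.68 after Hlxb9 siRNA. Spc25 thus shared the dip on control 2 with G6pc2 (Pearson r = 0.875 over the 6 arrays, a description), and its difference was -0.13 ± 0.11 log2 (SE).

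Of the other genes that handle glucose 6-phosphate none passed. Slc37a4, which carries glucose 6-phosphate into the endoplasmic reticulum, read 11.31, 11.27 and 11.03 in controls and 11.50, 11.50 and 11.28 after Hlxb9 siRNA, a difference of 0.22 ± 0.12 log2 (SE, limma adjusted p = 0.684) and of 0.14 without control 3. The ubiquitous phosphatase gene G6pc3 differed by 0.10 ± 0.15, and by -0.025 without control 3 and 0.24 without control 2. The hepatic G6pc was dim (2.39 and 2.58). Hk1, a hexokinase kept low in mature beta cells, read 8.99, 9.33 and 9.81 in controls and 8.91, 9.20 and 8.92 after Hlxb9 siRNA. Its difference of -0.37 ± 0.21 became -0.15 without control 3 and -0.56 without control 1, and its other probe set differed by 0.22. In the list of glucose entry and phosphorylation, 11 of 14 measured genes had higher values and 3 lower ones (median 0.11 log2 against 0.0023 over all 18193 genes), and 0 passed.

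Abcc8, the sulfonylurea receptor gene SUR1, gave different answers on its 2 probe sets. The brighter one read 12.41, 12.38 and 12.80 on control arrays 1, 2 and 3 and 12.77, 12.56 and 12.43 on Hlxb9 siRNA arrays 1, 2 and 3. Control 3 and Hlxb9 siRNA 1 were high and the groups overlapped, with means of 12.53 ± 0.23 and 12.59 ± 0.17 (SD, n = 3 each). Hlxb9 siRNA minus control was 0.059 ± 0.15 log2 (SE), with a 95% interval from -0.29 to 0.41, and did not pass (limma adjusted p = 0.932, exact two-sided permutation p = 0.7). Its sign turned without control 1 (-0.002), control 2 (-0.016) or Hlxb9 siRNA 1 (-0.031), and it was 0.19 without control 3 and 0.14 without Hlxb9 siRNA 3. Without both arrays numbered 3 it was 0.27 (limma adjusted p = 0.456).

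The second Abcc8 probe set read 8.96, 9.38 and 8.33 in controls and 9.50, 9.39 and 9.22 after Hlxb9 siRNA. Here control 3 was the lowest array, 0.84 log2 below the mean of the other controls, whereas on the brighter probe set the same array was the highest, 0.41 above them. Over the 6 arrays the Abcc8 probe sets had r = -0.355. The means were 8.89 ± 0.53 and 9.37 ± 0.14 (SD, n = 3 each) and the difference was 0.49 ± 0.24 log2 (SE) or 1.40-fold, with a 95% interval from -0.082 to 1.05 (limma adjusted p = 0.669, exact two-sided permutation p = 0.2). Within pairs of equal number it was 0.55, 0.014 and 0.89, so pair 2 was close to 0. With the block the unadjusted limma p was 0.0326 and the adjusted p 0.514. Without control 3, the array with the large Gapdh end difference, the value was 0.21 (adjusted p = 0.676), without control 2 it was 0.73 (adjusted p = 0.717), and with array weights 0.093. The part of RNA quality in the low value on control 3 was not tested.

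Kcnj11, the pore subunit that assembles with SUR1, showed no detectable difference between the groups. Its brighter probe set read 9.18, 9.24 and 9.43 on control arrays 1, 2 and 3 and 9.35, 9.28 and 9.05 on Hlxb9 siRNA arrays 1, 2 and 3. The highest array was control 3 and the lowest Hlxb9 siRNA 3, and the groups overlapped at 9.28 ± 0.13 and 9.23 ± 0.16 (SD, n = 3 each). Hlxb9 siRNA minus control was -0.057 ± 0.12 log2 (SE), with a 95% interval from -0.35 to 0.23, and did not pass (limma adjusted p = 0.918, exact two-sided permutation p = 0.7). That interval leaves out a change of 2-fold in either direction. The sign turned without control 3 (0.015), without Hlxb9 siRNA 3 (0.032) and without both arrays numbered 3 (0.10). The other probe set was dim, at 4.73, 5.05 and 5.27 in controls and 5.24, 4.83 and 5.11 after Hlxb9 siRNA, and differed by 0.047 ± 0.17. Array number took up 1.06% of the sum of squares of the brighter Kcnj11 probe set, among the lowest shares on the array (1.44% of probe sets had a lower one).

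**Figure D3:**
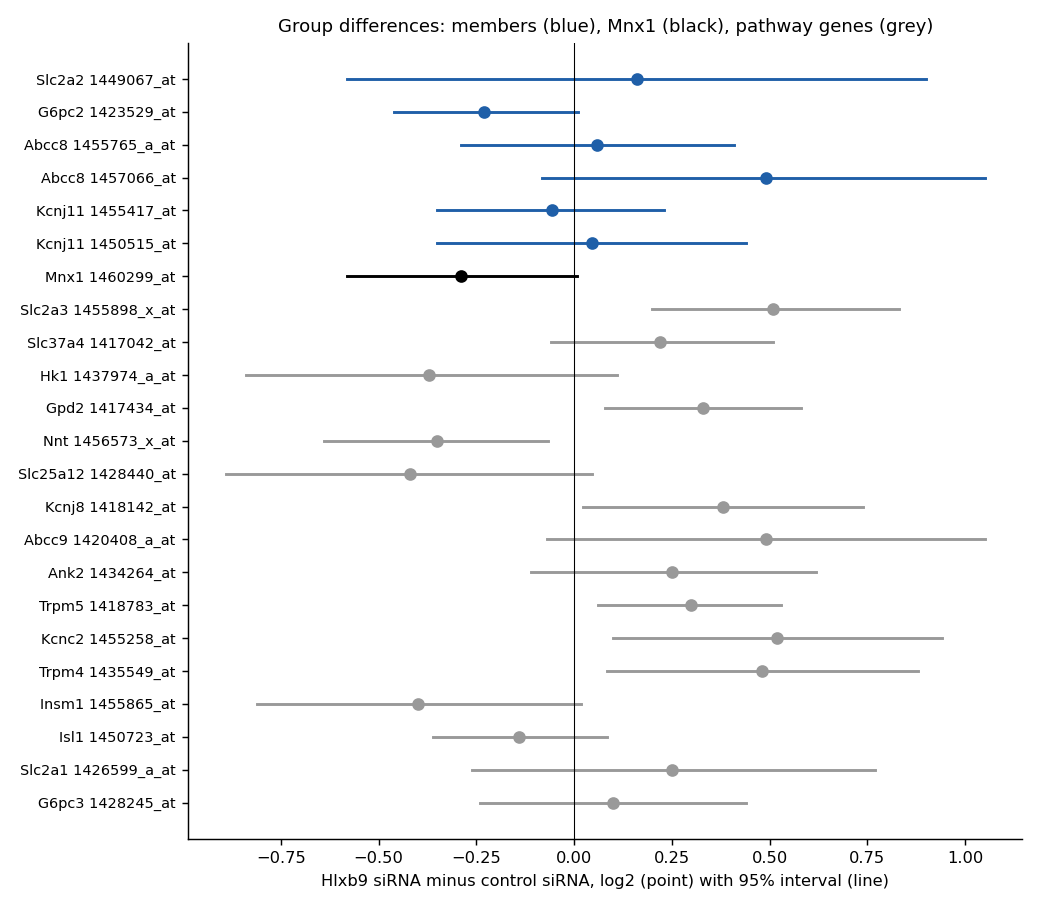
Hlxb9 siRNA minus control siRNA in log2, with 95% limma intervals, for the 6 member probe sets (blue), Mnx1 (black) and 16 named pathway genes (grey). All member intervals cross 0, that of G6pc2 reaching 0.0091 and that of Slc2a2 running from -0.58 to 0.90.

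The channel subunit genes are next to each other in the genome, and whether they varied together depended on the Abcc8 probe set. On their brighter probe sets, Abcc8 and Kcnj11 both read highest on control 3 and next highest on Hlxb9 siRNA 1, with r = 0.820 over the 6 arrays. The second Abcc8 probe set had r = -0.360 with the brighter and -0.203 with the dim Kcnj11 probe set. Within pairs of equal number Abcc8 differed by 0.36, 0.18 and -0.37 log2 and Kcnj11 by 0.17, 0.035 and -0.38. Both were thus higher after Hlxb9 siRNA in pairs 1 and 2 and lower in pair 3. Pair 3 holds control 3, the array apart in RNA quality and the highest for both genes. Without both arrays numbered 3 the differences were 0.27 for Abcc8 and 0.10 for Kcnj11. The part of RNA quality in these patterns was not tested. An r of 0.820 is not particular to these genes, since among 9310 compared genes Abcc8 ranked 482 by likeness to Kcnj11 and Kcnj11 ranked 1003 by likeness to Abcc8. On the far side of Abcc8 lies Ush1c, a scaffold gene, with r = 0.937 to it, and next to Kcnj11 lies Nomo1, with r = 0.683 to Kcnj11. Slc2a2 and G6pc2 had r of 0.028 with each other, 0.282 and 0.047 with Abcc8, and -0.112 and 0.264 with Kcnj11 on the brighter probe sets. The second Abcc8 probe set had r = -0.510 with Slc2a2 and -0.840 with G6pc2.

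The related KATP subunits of smooth and cardiac muscle, Kcnj8 and Abcc9, were near or below the array median. Kcnj8 read 5.06, 5.52 and 5.58 in controls and 5.70, 5.73 and 5.89 after Hlxb9 siRNA, all above the controls, a difference of 0.38 ± 0.16 log2 (SE, limma unadjusted p = 0.0403, adjusted p = 0.653), and of 0.22 without control 1. Abcc9 read 3.83, 4.11 and 4.57 in controls and 4.23, 4.75 and 5.00 after Hlxb9 siRNA, a difference of 0.49 ± 0.24 (adjusted p = 0.667), and its other probe sets stood at 0.42 and 0.38. Without control 1 or without Hlxb9 siRNA 3 it was 0.32. It was higher on the arrays numbered 3 by 0.55 log2 (limma F test, unadjusted p = 0.00446). Both genes lay higher after Hlxb9 siRNA in every pair, as did the second Abcc8 probe set (0.55, 0.014 and 0.89 log2). Abcc8 and Kcnj11 on their brighter probe sets did so in pairs 1 and 2 but not in pair 3, which holds control 3. The difference between the gene pairs was not tested. Ank2, encoding an ankyrin that holds the KATP channel at the membrane, differed by 0.25 ± 0.16, and by 0.093 without control 3. In the list of relatives and partners 6 of 11 measured genes lay higher and 5 lower (median 0.015 log2), and 0 passed.

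Downstream of channel closure, the calcium channel genes Cacna1c and Cacna1d, whose channels carry the calcium current that releases insulin, differed by 0.0048 ± 0.15 and 0.04 ± 0.11 log2 (SE). The sodium-permeable channel genes Trpm5 and Trpm4 had all treated arrays above the controls. Trpm5 read 9.93, 10.06 and 9.90 in controls and 10.27, 10.31 and 10.18 after Hlxb9 siRNA (0.30 ± 0.10 log2, SE), with 0.39 and 0.12 on the others. Trpm4 read 7.94, 8.25 and 7.55 in controls and 8.37, 8.42 and 8.41 after Hlxb9 siRNA (0.48 ± 0.17), and 0.30 without control 3. Kcnc2, a voltage-gated potassium channel gene, was likewise separated, though only before rounding, at 6.10, 5.99 and 6.66 against 6.66, 6.76 and 6.89 (0.52 ± 0.18). These 3 had unadjusted limma p-values of 0.0205, 0.0235 and 0.0216, and adjusted p = 0.645 for each. The sodium channel genes Scn3a and Scn9a were low on both arrays numbered 3, with shifts of -0.91 and -0.98 log2 (limma F test, unadjusted p = 0.0013 and 0.000251), opposite to Slc2a2. Only their brightest probe sets were read, of 2 for Scn3a and 5 for Scn9a, and that of Scn9a is an _x_at probe set. Of 14 measured genes of the voltage response 11 lay higher and 3 lower (median 0.066 log2), and 0 passed.

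Between glucose and ATP, Gpd2, the mitochondrial enzyme of the glycerol phosphate shuttle, read 11.73, 11.77 and 11.60 in controls and 12.09, 11.91 and 12.08 after Hlxb9 siRNA (0.33 ± 0.11 log2, SE, limma adjusted p = 0.645). On the others Gpd2 stood at 0.18, -0.073 and 0.28. The transhydrogenase gene Nnt, on an _x_at probe set, read 11.61, 11.71 and 11.99 in controls and 11.40, 11.41 and 11.44 after Hlxb9 siRNA (-0.35 ± 0.12), with others at -0.22 and 0.0026. Slc25a12, a carrier of the malate aspartate shuttle, read 9.34, 9.35 and 10.02 in controls and 8.97, 9.15 and 9.33 after Hlxb9 siRNA (-0.42 ± 0.20). Its groups did not overlap but nearly touched, and its difference was -0.19 without control 3. The other probe sets of Slc25a12 stood at -0.028 and 0.0041. In this list 7 of 12 measured genes lay higher and 5 lower (median 0.029 log2), and 0 passed.

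Transcription factors known to act on the members had lower values in 9 of 11 measured genes, and 0 passed. Mnx1, the siRNA target itself, is among these 9. The median was -0.066 log2, against 0.0023 over all 18193 genes. Beside Mnx1 the smallest p belonged to Insm1 (-0.40 ± 0.18, -0.22 without control 3) and Isl1 (-0.14 ± 0.10, other probe set 0.17). Pdx1, on the brighter of its 2 probe sets, read 12.09, 12.08 and 12.17 in controls and 11.98, 11.98 and 12.05 after Hlxb9 siRNA. Its difference was -0.11 ± 0.10 (limma unadjusted p = 0.282). Of the 11 factors, Pdx1 and Isl1 had all treated values below the controls, a pattern shown by 7.29% of probe sets. Over all 62 pathway genes, 37 lay higher and 25 lower (median 0.053 log2). Of them 13 had groups that did not overlap (21.0%, against 17.3% of all genes by their brightest probe set), 7 had an unadjusted limma p under 0.05 (11.3%, against 7.95%), and 6 had an unadjusted p under 0.05 for array number (9.68%, against 6.71%).

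Genes whose signals were most like each member over the 6 arrays were sought among 9310 others with a signal above 5.16 and an SD of at least 0.1. For Slc2a2 these were Tox3 (r = 0.993), Foxo1 (0.986) and Gstm1 (0.981). Tox3 read 8.39, 8.35 and 9.20 in controls and 8.55, 8.64 and 9.24 after Hlxb9 siRNA, and so had the same high arrays as Slc2a2. For G6pc2 they were Eif4a1 (0.996), Lmo2 (0.994) and Cltrn (0.986), for Abcc8 Ttc39a (0.996), Strada (0.996) and Deaf1 (0.994), and for Kcnj11 Itm2c (0.993), Smyd5 (0.988) and Xpnpep1 (0.986). With 6 arrays and this many genes high values are plentiful, and 24, 30, 123 and 36 genes exceeded 0.95 with Slc2a2, G6pc2, Abcc8 and Kcnj11.

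**Figure D4:**
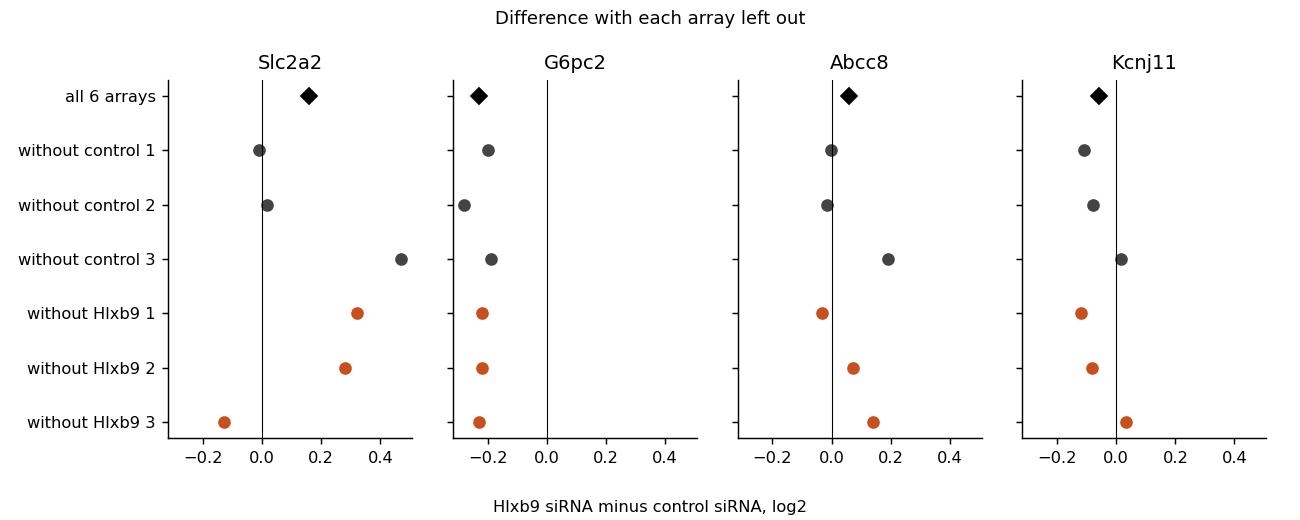
Hlxb9 siRNA minus control siRNA in log2 for the brighter probe set of each member, with all 6 arrays (black diamond) and with each array left out (circles, grey for a control and orange for an Hlxb9 siRNA array). G6pc2 stays between -0.28 and -0.19, while Slc2a2 runs from -0.13 to 0.47 and Abcc8 and Kcnj11 cross 0.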

How the data were processed

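The deposited values are log2 signals of an Affymetrix mouse array, and the submitters' processing notes name RMA (background correction, quantile normalization, probe summary) and Partek, without version or settings. Of 45101 probe sets, 64 array controls were set aside. Names came from the platform annotation, and a gene was read by its brightest probe set. Groups were compared with limma 3.58.1 (R 4.3.3, lmFit and eBayes, two-sided, Benjamini-Hochberg over 45037 probe sets) and array number by limma's moderated F test with group in the model. Both were run on simulated data with independent noise on each array. Those simulated data lack the likeness between arrays of equal number seen here. Precision is set by 3 arrays a group. Deviations from group means correlated at 0.155, 0.165 and 0.202 between arrays of equal number and from -0.206 to 0.072 between arrays of unequal number. The number was therefore used to pair arrays in the block fit and the pair differences, from the values and not the labels. The main group comparison has no term for number. Named genes are the members, Mnx1, the 3 of smallest p in each pathway list, Kcnj8, Abcc9, Hk1, Slc2a1 and G6pc3, any past the threshold, the 3 most like each member, and its genomic neighbours. G6pc, Pdx1, Cacna1c, Cacna1d, Scn3a, Scn9a and the single markers were picked after their values were seen. Of 72 pathway and 38 marker entries, 62 and 33 matched a probe set. The members and lists were chosen with earlier results of these data known.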

Additional observations from a re-analysis of the deposited data

How the results depend on the processing

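The group comparison called 0 probe sets under every alternative run except array weights, which called 1132. Most weight went to control 2 (4.46) and Hlxb9 siRNA 2 (2.91) and least to control 3 (0.204), so the weighted values rest mainly on pair 2. Without any 1 array, or without both arrays numbered 3, the group comparison called 0 (0 to 0). With the replicate block, limma called 0 and the members differed by 0.16 (Slc2a2), -0.23 (G6pc2), 0.059 (Abcc8) and -0.057 (Kcnj11), and it changed no call. Leaving out arrays gave ranges of -0.13 to 0.47 for Slc2a2, -0.031 to 0.27 for Abcc8, -0.12 to 0.10 for Kcnj11, -0.10 to 0.17 for its dim probe set and -0.025 to 0.24 for G6pc3. Directions also turned for Kcnj11 with array weights (0.0067), for its dim probe set with centring (-0.0053), repeated quantile normalization (-0.0046) and array weights (-0.072), and for G6pc3 with array weights (-0.12). The F test of array number called 3 probe sets, 0 with the offset of 32, 0 without dim probe sets, and between 0 and 3459 without each array, 38 without control 3 and 3459 without Hlxb9 siRNA 3. In that last setting number 3 is control 3 alone, the array apart in RNA quality, so its calls, Slc2a2 included (adjusted p = 0.0215), rest on 1 array, which is assumed to vary like the others. The range of that adjusted p over left-out arrays was 0.0215 to 1.0. With array weights Slc2a3 (0.41, limma adjusted p = 0.0431) and Kcnc2 (0.74, adjusted p = 0.0326) passed, close to their differences within pair 2 (0.41 and 0.77). The cause was not tested for any of these. G6pc2 kept its direction under all 14 alternatives run. Leaving out both arrays numbered 3 was chosen after seeing the data. Array signal near the median, as for the dim Kcnj11 probe set and Abcc9, limits what can be read.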
